A study of Mus musculus with 16 samples.

Results

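The V(D)J recombination and end-joining genes described here are 9 of the 23279 gene symbols in the deposited table, and were followed across 4 genotypes of mouse pre-B cells. They were chosen by name. Rag1, Rag2 and Dntt are lineage-specific recombination genes (3 genes). Dclre1c, Prkdc, Xrcc5, Xrcc6, Xrcc4 and Lig4 are end-joining factors of most cell types (6 genes). Each of the 9 symbols had 1 entry in the table, and 9 of 9 were among the 10210 genes expressed highly enough to be tested (at least 1 FPKM in at least 4 of 16 libraries). Values are FPKM, fragments per kilobase of transcript scaled to library size, so levels can be set side by side between genes. Between libraries the comparison is less exact. Summed FPKM ran from 348923 to 443702, and the main tests applied no further normalization.

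PolyA RNA of 16 pre-B cell samples was sequenced, in 4 groups of 4 libraries that cross the BCR-ABL1 fusion kinase with SHP2, the tyrosine phosphatase encoded by Ptpn11. The groups are labelled BCR-ABL NULL (-/-)/SHP2 WT (+/+), BCR-ABL NULL (-/-)/SHP2 NULL (-/-), and the same SHP2 genotypes with BCR-ABL WT (+/+), here called SHP2 wild-type or SHP2-null cells without or with BCR-ABL1. Replicates carry the numbers 0 to 3 in each group. The labels do not say how the kinase was introduced, how SHP2 was lost, or whether the replicates are separate cultures or animals. The p-values therefore reflect only the spread among these 16 libraries, part of which may be technical.

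V(D)J recombination assembles antigen receptor genes in developing lymphocytes. The RAG1 and RAG2 proteins together cut DNA at recombination signals, which leaves hairpin-sealed coding ends. Artemis, encoded by Dclre1c and activated by the kinase DNA-PKcs (Prkdc), opens the hairpins. The Ku heterodimer (Xrcc5 and Xrcc6) binds the broken ends, terminal deoxynucleotidyl transferase (Dntt) adds untemplated nucleotides to them, and the XRCC4 and LIG4 complex seals the joint. In B-lineage cells Dntt is typical of the pro-B stage, while the RAG genes are used at the pro-B stage and again in small pre-B cells.

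The RAG genes lie side by side. On GRCm38, in the GENCODE M21 annotation, Rag2 (ENSMUSG00000032864.4, plus strand) spans chr2:101624718-101632529 and Rag1 (ENSMUSG00000061311.6, minus strand) spans chr2:101638282-101649501, with 5752 bp between their 3′ ends. The gene B230118H07Rik overlaps both, on the strand of Rag1, and its own entry read 0.291 to 0.881 FPKM over the 16 libraries. Dntt (chr19:41029275-41059525, plus strand), Xrcc5 (chr1:72307421-72394952, plus strand) and Lig4 (chr8:9969049-9977686, minus strand) overlapped no other annotated gene. Prkdc (chr16:15637866-15842235, plus strand) overlaps a processed pseudogene. Dclre1c (chr2:3424131-3464130, plus strand), Xrcc6 (chr15:81987835-82040085, plus strand) and Xrcc4 (chr13:89774027-90089608, minus strand) each overlap a protein-coding gene on the opposite strand, namely Suv39h2 at 4.59 to 5.83 FPKM, Desi1 at 10.6 to 16.0 FPKM and Tmem167 at 6.71 to 9.88 FPKM. The library kit kept strand, but no source used here says whether the authors' counting used it, so reads of overlapping genes may be shared.

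The RefSeq promoter table held a start site for 8 of the 9 genes, with 2 for Lig4. The 250 bases upstream are printed for the genes on which the results below turn, namely the paired RAG genes, Dntt, and the end-joining genes that rose with BCR-ABL1. All are GRCm38.p6 and written 5′ to 3′ on the gene's own strand. Capitals mark matches, on either strand, to the motifs GTAAACA (FOXO), CAGGTG (E-box), TTCNNNGAA (STAT), TGGGAA (Ikaros) and GGAAGT (ETS). TGGGAA and GGAAGT can overlap through the letters GGAA, and no matches overlapped in these windows.
Rag1, chr2:101649533-101649782, minus strand: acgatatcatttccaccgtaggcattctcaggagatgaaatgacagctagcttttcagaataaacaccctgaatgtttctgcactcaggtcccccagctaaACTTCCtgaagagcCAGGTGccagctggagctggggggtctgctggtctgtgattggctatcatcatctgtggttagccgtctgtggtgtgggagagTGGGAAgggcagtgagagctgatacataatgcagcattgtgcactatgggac
Rag2, chr2:101624462-101624711, plus strand: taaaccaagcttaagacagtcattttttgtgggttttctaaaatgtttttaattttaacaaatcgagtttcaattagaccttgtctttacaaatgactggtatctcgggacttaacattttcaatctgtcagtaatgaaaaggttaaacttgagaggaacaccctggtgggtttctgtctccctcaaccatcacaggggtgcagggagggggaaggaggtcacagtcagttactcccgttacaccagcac
Dntt, chr19:41029025-41029274, plus strand: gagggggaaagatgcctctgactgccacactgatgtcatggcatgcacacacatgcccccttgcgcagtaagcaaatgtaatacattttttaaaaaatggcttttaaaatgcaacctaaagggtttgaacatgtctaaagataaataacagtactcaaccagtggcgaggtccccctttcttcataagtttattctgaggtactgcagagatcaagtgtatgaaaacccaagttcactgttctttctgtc
Xrcc6, chr15:82016119-82016368, plus strand: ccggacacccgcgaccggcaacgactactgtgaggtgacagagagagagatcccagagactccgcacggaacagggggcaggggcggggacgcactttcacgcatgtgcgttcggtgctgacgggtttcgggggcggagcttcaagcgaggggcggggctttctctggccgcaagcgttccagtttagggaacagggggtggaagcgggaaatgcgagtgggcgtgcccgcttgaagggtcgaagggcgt
Lig4, first start, chr8:9977681-9977930, minus strand: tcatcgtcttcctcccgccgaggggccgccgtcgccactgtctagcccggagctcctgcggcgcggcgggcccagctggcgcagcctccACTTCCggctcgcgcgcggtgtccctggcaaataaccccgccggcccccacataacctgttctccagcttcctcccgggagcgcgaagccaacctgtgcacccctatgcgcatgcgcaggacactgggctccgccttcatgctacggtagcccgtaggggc

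The Rag1 window held a CAGGTG at position -135 from the start, a TGGGAA at -52 and a GGAAGT, read on the other strand as ACTTCC, at -149. The first Lig4 window held a GGAAGT on the other strand at -161, and the second Lig4 window a TGGGAA on the other strand at -95. The Rag2, Dntt and Xrcc6 windows held none of the 5 motifs, nor did those of Dclre1c, Xrcc5 and Xrcc4. Over all 32851 windows of this length in the table, 17.2% held CAGGTG, 21.6% TGGGAA, 19.7% GGAAGT, 7.02% TTCNNNGAA and 3.17% GTAAACA, so matches of this kind are common, and they describe letters only. The windows also differed in base composition. Those of Rag2 and Dntt were 41.2% and 41.6% G and C, those of Xrcc6 and Lig4 65.2% and 70.0%, and the median over all windows was 52.4%. The Xrcc6 start of RefSeq lies inside the longer GENCODE span given above, and those of Rag1 and Rag2 lie upstream of theirs. Positions are counted from the RefSeq starts. For 7 of the 9 windows the first transcribed bases were found in a GENCODE transcript of the gene.

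Ptpn11 read 15.7 to 18.0 FPKM in the 8 libraries labelled SHP2 WT and 2.87 to 7.43 FPKM in the 8 labelled SHP2 NULL, with no overlap. All 10 B-lineage markers listed were present at 1 FPKM or more in the 4 groups. They summed to 2576 to 2967 FPKM in wild-type and 3053 to 3201 FPKM in null cells without BCR-ABL1, and to 3099 to 3436 and 3065 to 3525 FPKM in wild-type and null cells with it, so the first group lay below the other 3. Of 9 T-cell and thymocyte markers, whose cells also express RAG genes and Dntt, 7 stayed under 1 FPKM in every library, with Cd3e at 0 in 8 libraries and at most 0.0711 FPKM, and Cd4 at 0 in 11. The exceptions were Lck at 20.4 to 34.3 FPKM and Thy1 at 2.001 to 8.22 FPKM. One library stood apart, replicate 2 of the SHP2-null cells without BCR-ABL1, where the macrophage and granulocyte gene Lyz2 read 403 FPKM against at most 34.3 FPKM elsewhere. The 8 myeloid markers listed summed to 44.6 to 66.1 FPKM in wild-type and 41.0 to 509 FPKM in null cells without BCR-ABL1, and to 34.4 to 45.1 and 36.2 to 43.0 FPKM in wild-type and null cells with it. Between 3 and 6 of the 8 reached 1 FPKM in a group. The granule genes Elane and Mpo were at 0 in 14 and 5 libraries and under 1 FPKM in the rest. The highest values of Ctss, Cd68, Fcgr3, Csf1r and Itgam were 79.5, 12.4, 9.10, 3.57 and 1.96 FPKM. Their medians over the 16 libraries were 34.5, 1.44, 0.343, 0.209 and 0.316 FPKM. The sum of 509 FPKM, in the library with the highest Lyz2, requires all of them at or near these highest values. The 4 mast cell and basophil markers summed to 7.02 to 12.3 and 0.0204 to 9.05 FPKM in wild-type and null cells without BCR-ABL1, and to 0.423 to 5.57 and 0.0663 to 1.74 FPKM with it. Changes that rest on that library are given with and without it in the main fit, for comparisons that include its group. That fit takes each gene's spread from all 4 groups, so the library also enters the SE in the other comparisons. Fits on the compared groups alone leave it out there. Its part in the results was otherwise not tested. In these bulk samples fewer cells of a type and less RNA per cell cannot be told apart.

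Level per length differed widely among the 9 genes. Dntt (median 60.04 FPKM over 16 libraries) and Xrcc6 held the top of the order, Dntt between ranks 1 and 3 and Xrcc6 between 1 and 2. Xrcc5 came next, between ranks 2 and 4. Lig4, Dclre1c, Prkdc and Rag1 followed with ranges that overlapped, so their order changed from library to library. Xrcc4 stood at ranks 7 to 8, and Rag2, with a median of 2.99 FPKM, was last in the median library.

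The genes also fell at opposite ends of the scale of variability. Prkdc varied least, with an SD of 0.07 in log2(FPKM + 1) over the 16 libraries, and 1.07% of all tested genes varied less. Dclre1c and Xrcc4 followed, with 8.54% and 12.2% of tested genes below them. Xrcc5, with an SD of 0.14, lay close to the median gene at 0.16. Lig4 and Xrcc6, at 0.26 and 0.28, exceeded 83.1% and 86.1% of tested genes. The lineage-specific genes varied most. Rag2, Rag1 and Dntt had SDs of 0.43, 0.78 and 1.19, above 94.4%, 98.8% and 99.7% of tested genes. How much of that spread followed the genotype differed as well. Group means took 63.9% of the variation of Lig4 and 61.2% of that of Xrcc6, against a median of 26.4% over all tested genes. For Xrcc5, Rag1 and Prkdc they took 44.2%, 32.5% and 30.9%, and for Dclre1c and Xrcc4 14.9% and 14.8%. For Dntt they took 5.11% and for Rag2 3.10%.

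**Figure D1:**
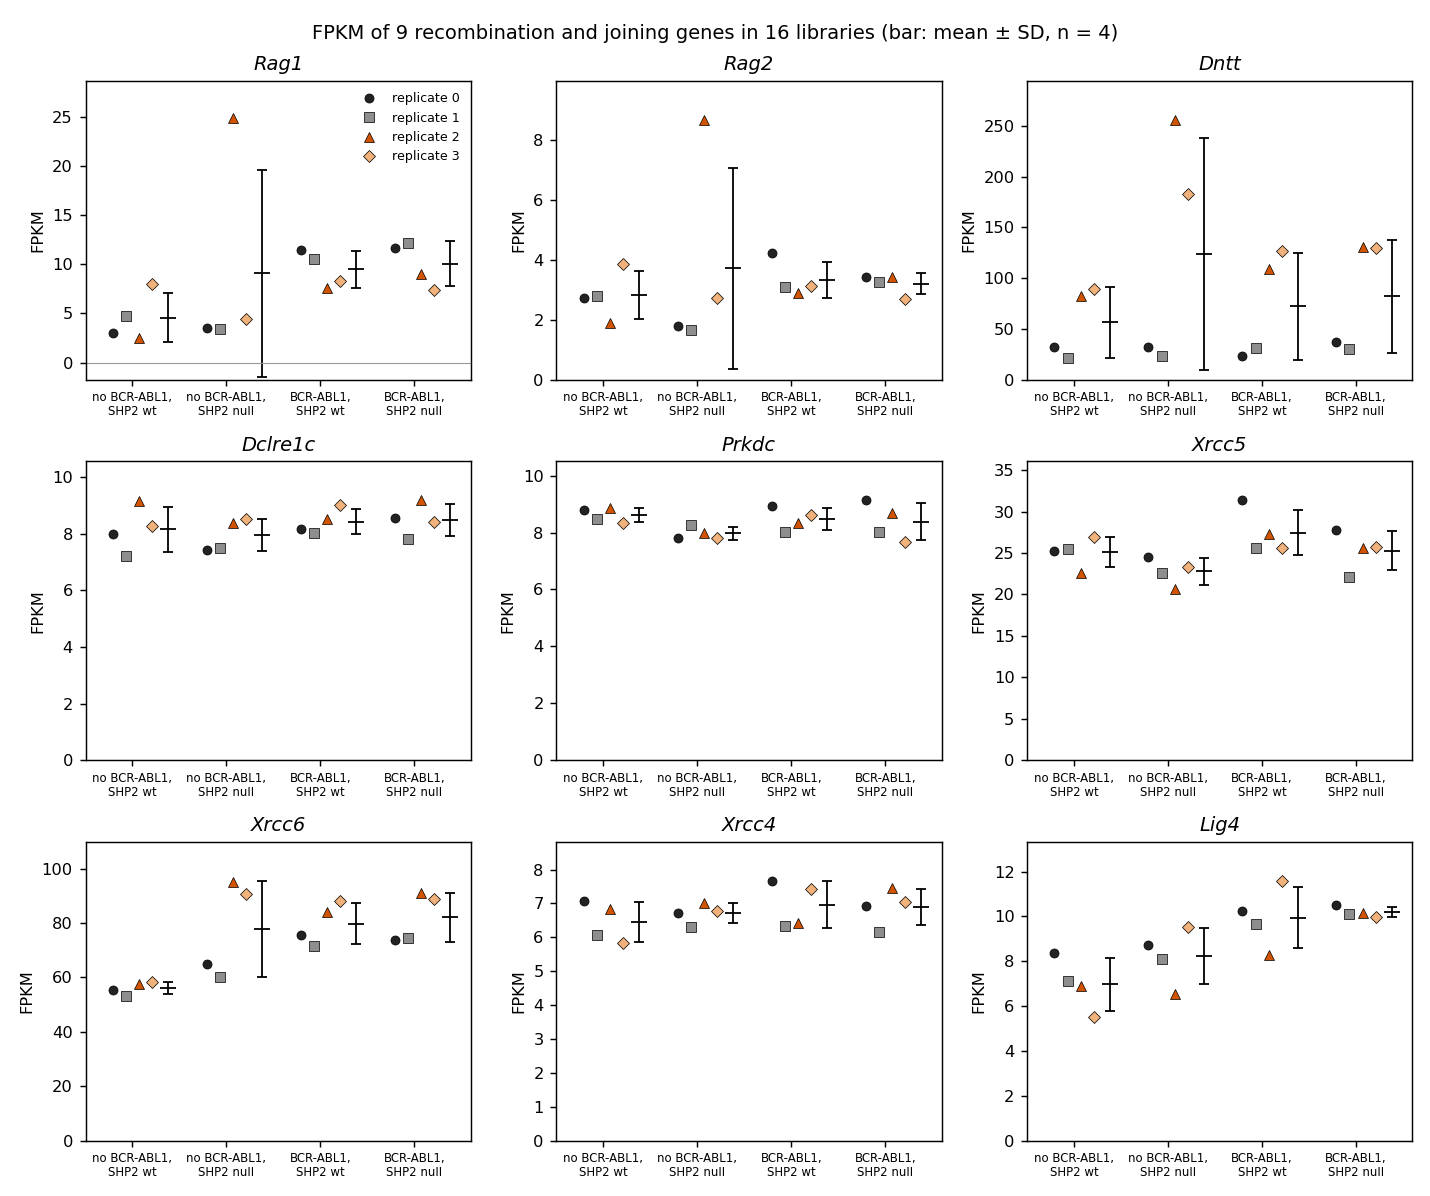
FPKM of the 9 genes in each of the 16 libraries, by group, with replicate numbers as symbols and the mean ± SD (n = 4) as a bar at the right of each group. Dclre1c, Prkdc and Xrcc4 stay nearly level, Dntt splits by replicate number within every group, and replicate 2 of the SHP2-null cells without BCR-ABL1 is highest for Rag1 (25.0 FPKM), Rag2 (8.66 FPKM) and Dntt (256 FPKM).

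Differences between groups were tested with limma, with adjustment over all 10210 genes and a call at adjusted p below 0.05. Fold changes are differences in log2(FPKM + 1), given ± SE. The comparison of BCR-ABL1 in SHP2 wild-type cells asks what the kinase does to the recombination machinery when SHP2 is present. Of the 9 genes, 2 rose and none fell. This compares with 4.67% of all tested genes called in either direction, 2.95% higher and 1.72% lower. Both that rose are end-joining factors, Xrcc6 and Lig4. The median change over the 9 genes was 0.19, beside 0.04 over all tested genes.

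Xrcc6 encodes the smaller Ku subunit. It read 55.5, 53.1, 57.5 and 58.4 FPKM in wild-type cells without BCR-ABL1 (56.1 ± 2.36, SD, n = 4), and 75.7, 71.6, 83.9 and 88.0 FPKM with it (79.8 ± 7.49). The groups did not overlap, as for 11.7% of tested genes in either direction and 7.66% in this one. The change was 0.50 ± 0.13 (limma, adjusted p = 0.0429).

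Lig4 encodes the ligase that closes the joint. It read 8.38, 7.12, 6.89 and 5.499 FPKM without BCR-ABL1 (6.97 ± 1.18) and 10.2, 9.67, 8.27 and 11.6 FPKM with it (9.94 ± 1.37). The ranges touched in 1 library of each group, 8.38 FPKM without and 8.27 FPKM with the kinase. The change was 0.46 ± 0.12 (limma, adjusted p = 0.0353).

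Both calls lie close to the threshold in this fit, which leaves the replicate number out, while the sizes were steady. Leaving out 1 library at a time kept the Xrcc6 change between 0.45 and 0.55 and the Lig4 change between 0.37 and 0.54, with adjusted p of 0.0438 to 0.111 and 0.0179 to 0.109 in limma. The call of Xrcc6 was lost without replicates 0, 1, 2 or 3 of the cells without BCR-ABL1 (limma, adjusted p = 0.0720, 0.0877, 0.0994 and 0.0809) and without replicates 0, 2 or 3 of those with it (0.0860, 0.109 and 0.111). The call of Lig4 was lost without replicates 1, 2 or 3 of the former (0.0584, 0.0929 and 0.109) and without replicates 0, 1 or 3 of the latter (0.102, 0.0559 and 0.103). Without a filter on low values both calls were lost (0.0648 for Xrcc6 and 0.0564 for Lig4). Xrcc6 was also lost with a filter on a mean of 5 FPKM (0.0588), and Lig4 with quantile normalization (0.0595) and with the compared groups alone (0.0861). With the replicate number as a block both were called (limma, adjusted p = 0.00208 for Xrcc6 and 0.0152 for Lig4). That fit called 12.1% of all tested genes, and 7.73% higher.

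Sums of cell type markers differed in the same comparison. The B-lineage sum was lower in every wild-type library without BCR-ABL1 than in every one with it, and the mast cell and basophil sum was higher, as given above. Cd24a, the most abundant B-lineage marker, weighs most in the B-lineage sum. Cd79a overlapped, at 175 to 285 FPKM without and 170 to 274 FPKM with BCR-ABL1. Mean Pax5 was 66.6 FPKM without and 64.3 FPKM with it. The means of Ebf1 (59.9 and 63.4), Igll1 (586 and 626) and Vpreb1 (432 and 466) were higher with it. Of the 4 mast cell and basophil markers, 3 reached 1 FPKM in a library without the kinase and 2 in a library with it. Over all 16 libraries Cpa3 was at most 7.54 FPKM and Cma1 at 0 in 8. Their part in the Xrcc6 and Lig4 results was not tested.

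Rag1, the catalytic subunit of the recombinase, read 3.02, 4.76, 2.50 and 8.05 FPKM in wild-type cells without BCR-ABL1 (4.58 ± 2.505) and 11.5, 10.6, 7.56 and 8.31 FPKM with it (9.49 ± 1.86). Of the 4 libraries without the kinase, only replicate 3 reached into the range of those with it. The estimated change, 0.99 ± 0.45 with a 95% confidence interval of 0.04 to 1.95, was the largest of the 9, but did not pass (limma, adjusted p = 0.239). With the replicate number as a block the interval ran from -0.04 to 2.03 (limma, adjusted p = 0.190). The SE also includes the spread of null cells without BCR-ABL1 (9.08 ± 10.6 FPKM), a group not compared here. Rag1 was not called in any of 17 alternatives, which include the compared groups alone (limma, adjusted p = 0.0844 to 0.525).

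Rag2, the cofactor of RAG1 that also reads a histone mark, read 2.73, 2.78, 1.90 and 3.87 FPKM without and 4.22, 3.08, 2.89 and 3.12 FPKM with BCR-ABL1. These ranges overlapped, and the change was 0.19 ± 0.30 (interval -0.44 to 0.83). For Dntt the change was 0.23 ± 0.81, with an interval from -1.49 to 1.96 in this fit, which leaves the replicate number out. For the other end-joining genes the intervals were narrow. That of Prkdc ran from -0.15 to 0.10, that of Dclre1c from -0.11 to 0.20, that of Xrcc4 from -0.07 to 0.26 and that of Xrcc5 from -0.06 to 0.30.

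BCR-ABL1 in SHP2-null cells asks the same of cells without the phosphatase. None of the 9 genes was called, beside 1.26% of all tested genes, and 1 had an unadjusted p below 0.05 in limma, beside 13.5%. That gene was Lig4, which read 8.71, 8.12, 6.56 and 9.52 FPKM in null cells without BCR-ABL1 (8.23 ± 1.25) and 10.5, 10.1, 10.1 and 9.98 FPKM with it (10.2 ± 0.227). All 4 libraries with the kinase lay above all 4 without it, as for 7.07% of tested genes in either direction and 3.76% in this one. Its change was 0.29 ± 0.12 (limma, adjusted p = 0.290).

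Rag1 read 3.50, 3.41, 25.0 and 4.45 FPKM in SHP2-null cells without BCR-ABL1 and 11.7, 12.2, 9.06 and 7.35 FPKM with it. Of the 4 libraries without the kinase, 3 lay below every library with it and replicate 2 lay above. The change was 0.58 ± 0.45 (limma, adjusted p = 0.621), and without that library, the one rich in Lyz2, it was 1.19 (limma, adjusted p = 0.0345, where 1.68% of all tested genes were called and 0.825% higher). Rag2 moved the same way, from 0.05 with the library to 0.47 without it, and Dntt went from -0.22 to 0.35, neither called. Xrcc6 was at 73.9, 74.6, 91.0 and 88.7 FPKM in the null cells with BCR-ABL1, within the range of the null cells without it, and its change was 0.10 ± 0.13. The comparison is also sensitive to how libraries are weighted. With array weights, which count atypical libraries less, Rag1 and Xrcc6 were called higher (limma, adjusted p = 0.0258 and 0.0225), 2 of the 9 genes, beside 18.2% of all tested genes called and 9.17% called higher.

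SHP2 loss without BCR-ABL1 moved none of the 9 genes past the threshold, beside 1.54% of all tested genes. Xrcc6 came nearest. Null cells read 64.8, 60.2, 95.02 and 90.8 FPKM (77.7 ± 17.7), against the 53.1 to 58.4 FPKM of wild-type cells given above. Every null library lay above every wild-type library, as for 9.09% of tested genes in either direction and 6.02% in this one. The change was 0.44 ± 0.13 (limma, adjusted p = 0.124). With the replicate number as a block it was called (limma, adjusted p = 0.00918, beside 5.75% of all tested genes and 4.03% higher), as it was without null replicate 1 (0.0472). Without null replicate 2 the change was 0.33 (limma, adjusted p = 0.310). The B-lineage marker sum was also higher in every null library than in every wild-type library of this comparison, and its part was not tested. Of its markers, Cd79a overlapped, at 176 to 294 FPKM in null and 175 to 285 FPKM in wild-type cells. The means of Pax5, Ebf1, Igll1 and Vpreb1 were higher in null cells. These wild-type libraries are also the controls of the BCR-ABL1 comparison in wild-type cells, so the Xrcc6 results of these comparisons are not independent. Over all 16 libraries, the 4 of wild-type cells without BCR-ABL1 held the lowest 4 values of Xrcc6, and the other 12 ran from 60.2 to 95.02 FPKM.

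Prkdc shifted the other way by a small amount. It read 8.80, 8.46, 8.87 and 8.33 FPKM in wild-type cells and 7.81, 8.28, 7.998 and 7.80 FPKM in null cells without BCR-ABL1. The groups were separated by 8.28 against 8.33 FPKM. Groups did not overlap for 9.09% of tested genes in either direction, of which the 6.02% given above were higher. The change of -0.10 ± 0.06 did not pass (limma, adjusted p = 0.418).

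For the lineage-specific genes 1 library weighed heavily in this comparison. Rag1, Rag2 and Dntt were 9.98, 4.56 and 3.09 times as high in null replicate 2 as in wild-type replicate 2. Their changes were 0.48, 0.11 and 0.69 with that library, and -0.13, -0.31 and 0.13 without it, and none was called either way (limma, adjusted p of 0.634, 0.891 and 0.714 with it). Dntt was above its same-number partner in 4 of 4 pairs, by 1.01, 1.083, 3.09 and 2.05 times. The interval of its change ran from -1.03 to 2.42 without the block. With the block it ran from 0.20 to 1.19, and the change did not pass after adjustment (limma, adjusted p = 0.0843). Xrcc6 was also higher in 4 of 4 pairs, by 1.17, 1.13, 1.65 and 1.56 times for numbers 0, 1, 2 and 3. Of all tested genes, 17.8% were higher in 4 of 4. Prkdc and Xrcc5 were lower in 4 of 4, as were 12.3%.

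SHP2 loss in cells with BCR-ABL1 moved none of the 9 genes past the threshold, beside 0.313% of all tested genes, and none had an unadjusted p below 0.05 in limma, beside 3.65% of all tested genes. In null cells Rag1 averaged 10.1 ± 2.27 FPKM, against the 9.49 ± 1.86 FPKM of wild-type cells, and Rag2 averaged 3.20 ± 0.353 against 3.33 ± 0.604 FPKM. The 95% confidence intervals of the change were -0.14 to 0.11 for Prkdc, -0.15 to 0.16 for Dclre1c, -0.18 to 0.15 for Xrcc4, -0.29 to 0.07 for Xrcc5, -0.24 to 0.32 for Xrcc6 and -0.21 to 0.29 for Lig4. For Rag1 the interval was wide, from -0.89 to 1.03, and a change as large as its 0.99 with BCR-ABL1 lies within it. The SE of Rag1, 0.45, draws on all 4 groups, including null cells without BCR-ABL1 (9.08 ± 10.6 FPKM), which are not compared here. The width therefore does not describe the compared libraries alone. The interval of Dntt ran from -1.48 to 1.96, and from -0.26 to 0.74 with the replicate number as a block.

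The SHP2 effects with and without BCR-ABL1 were then compared directly, as an interaction. It called none of the 9 genes and 0 of 10210 tested, with 591 genes (5.79%) at an unadjusted p below 0.05 in limma. Xrcc6 was the only 1 of the 9 among them. Its SHP2 effect was lower with BCR-ABL1 by 0.40 ± 0.19 on the log2 scale (a difference of -0.40, limma, unadjusted p = 0.0493, adjusted p = 0.839). The difference was -0.29 without null replicate 2 without BCR-ABL1 and -0.17 with array weights.

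**Figure D2:**
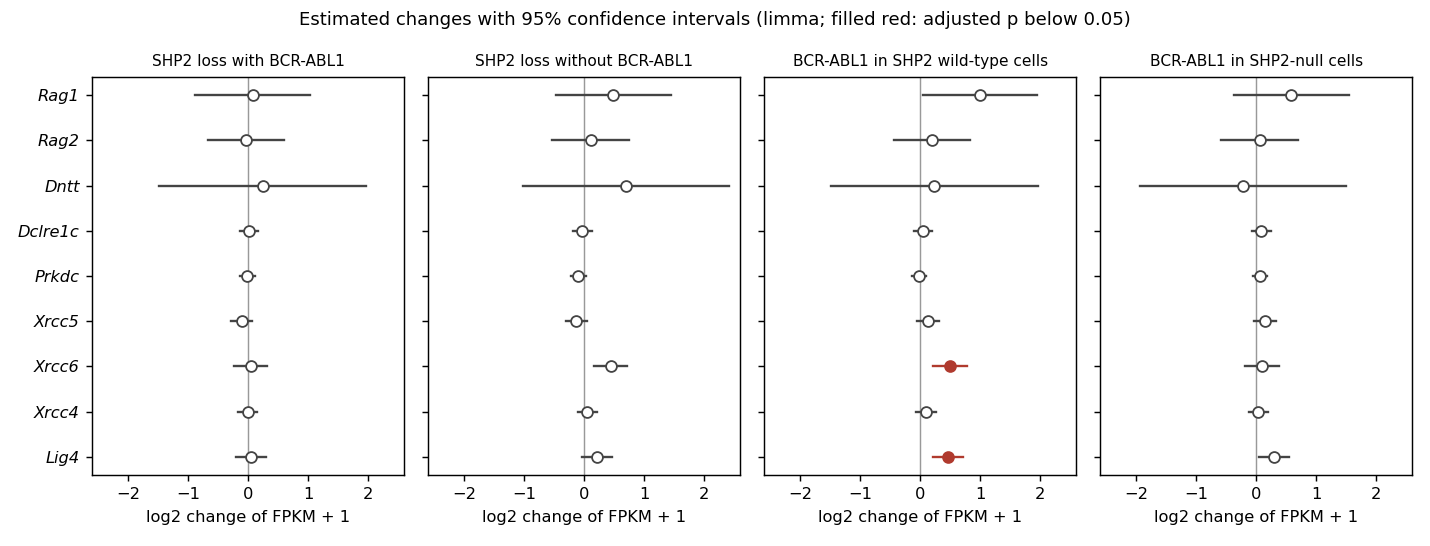
Estimated change of each gene in log2(FPKM + 1) with its 95% confidence interval (limma) in 4 comparisons, each named above its panel and given as the first-named state minus its reference. The filled red points, Xrcc6 (0.50) and Lig4 (0.46) with BCR-ABL1 in SHP2 wild-type cells, are those called, and the intervals of Rag1, Rag2 and Dntt are far wider than those of the end-joining genes. Each gene's SE draws on all 4 groups, so its intervals are equally wide in every panel.

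Within groups, Rag1 and Rag2 rose and fell together. Deviations from the group means in log2(FPKM + 1) correlated over the 16 libraries at Pearson r = 0.95 (permutation p = 0.00015, 0.00045 adjusted over the 3 pairs of lineage-specific genes) and Spearman rho = 0.92 (permutation p = 0.00021, adjusted 0.00063). Leaving out the 2 libraries farthest from the median of Rag1, replicate 2 of the null and replicate 3 of the wild-type cells without BCR-ABL1, gave r = 0.72 (permutation p = 0.00283), and leaving out any 1 library gave 0.82 to 0.97. With the means of the replicate numbers removed as well, r was 0.97 (permutation p = 4.00e-05, 0.00012 adjusted) and rho 0.97 (p = 2.00e-05, adjusted 6.00e-05). This form was added after the data were seen.

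No relation of Dntt to either passed. It correlated with Rag1 at r = 0.28 (permutation p = 0.613) and rho = 0.13 (p = 0.842), and with Rag2 at r = 0.42 (permutation p = 0.293, adjusted 0.439) and rho = 0.21 (p = 0.594). Without the same 2 libraries the values for Rag1 became r = -0.57 (permutation p = 0.0521) and rho = -0.58 (p = 0.0323, not adjusted). For Rag2 the 2 libraries farthest from its median were replicates 2 and 1 of the null cells without BCR-ABL1, and without them r was -0.05 (permutation p = 0.881) and rho 0.011 (p = 0.983). With the means of the numbers removed, which take most of the variation of Dntt within groups, it correlated with Rag1 at r = 0.58 (permutation p = 0.173, adjusted 0.173) and rho = 0.46 (p = 0.242), and with Rag2 at r = 0.66 (permutation p = 0.105, adjusted 0.158) and rho = 0.47 (p = 0.243). The sign and size of the relations of Dntt thus changed with the libraries and the means removed.

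**Figure D3:**
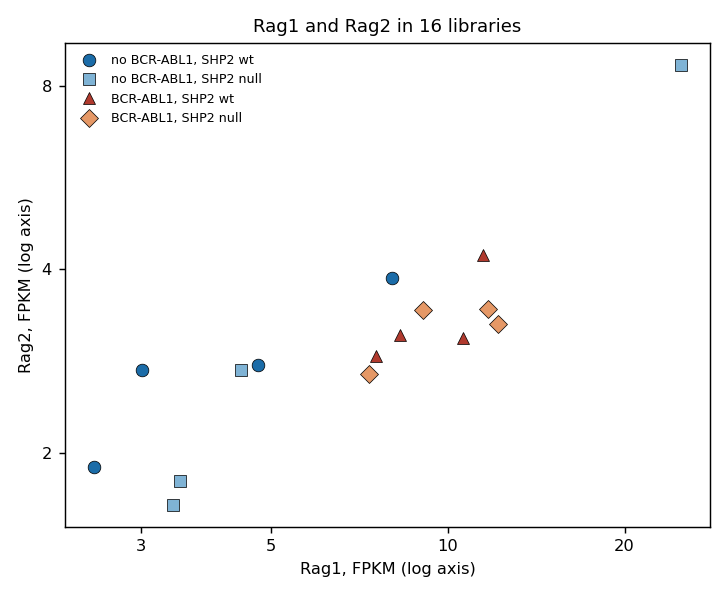
Rag1 against Rag2 in FPKM on log axes, 1 point per library, with groups by colour and shape. The library at the upper right is replicate 2 of the SHP2-null cells without BCR-ABL1 (25.0 and 8.66 FPKM). The 8 libraries with BCR-ABL1 lie between 7.35 and 12.2 FPKM of Rag1.

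The ratio of the RAG genes differed between groups more than Rag2 itself did. Rag1 over Rag2, in FPKM, was 1.10 to 2.08 in wild-type and 1.63 to 2.88 in null cells without BCR-ABL1, and 2.62 to 3.44 and 2.64 to 3.74 with it. In wild-type cells the ranges with and without the kinase did not overlap, and in null cells they overlapped through replicate 2 alone, at 2.88. The ratio of the Ku subunits, Xrcc6 over Xrcc5, was 2.08 to 2.54 in wild-type cells without BCR-ABL1, the lowest group mean, at 2.25 ± 0.202. Group means elsewhere were 3.45 ± 0.965 in null cells without it, 2.93 ± 0.434 in wild-type and 3.26 ± 0.404 in null cells with it.

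Lig4 over its scaffold partner Xrcc4 averaged 1.077 ± 0.122 and 1.23 ± 0.204 without BCR-ABL1 in wild-type and null cells, and 1.43 ± 0.134 and 1.48 ± 0.124 with it. Prkdc over Dclre1c, the kinase over the nuclease it activates, stayed at 0.988 to 1.06 in the 4 group means. These ratios were examined after their genes' values were known and are given as descriptions.

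**Figure D4:**
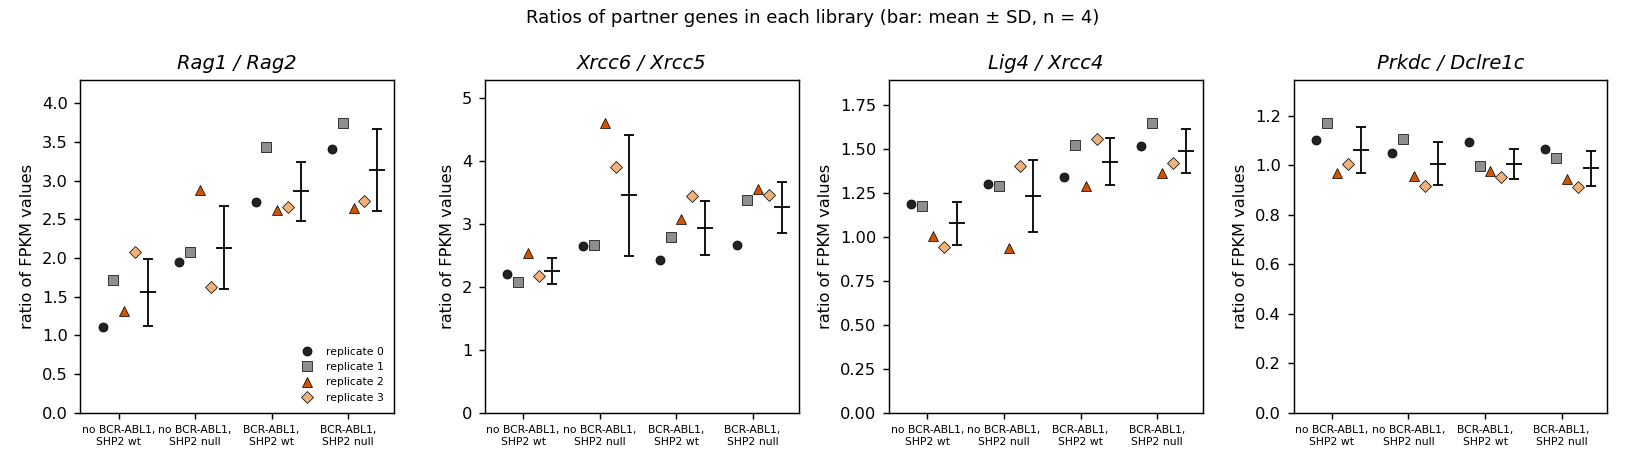
Ratio of FPKM values of genes whose proteins act together, in each library, by group, with replicate numbers as symbols and the mean ± SD (n = 4) as a bar. Rag1 over Rag2 is 2.62 or more in every library with BCR-ABL1, and Prkdc over Dclre1c stays near 1 throughout.

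Dntt split by the replicate number in the labels within every genotype. The libraries numbered 0 read 32.2, 32.6, 23.1 and 37.3 FPKM in wild-type and null cells without BCR-ABL1 and wild-type and null cells with it, and those numbered 1 read 21.3, 23.1, 30.9 and 30.5 FPKM in the same order. The libraries numbered 2 read 82.8, 256, 109 and 131 FPKM, and those numbered 3 read 89.2, 183, 127 and 130 FPKM. In every group the libraries numbered 2 and 3 lay above those numbered 0 and 1, and over all groups the ranges, 21.3 to 37.3 and 82.8 to 256 FPKM, did not overlap.

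This pattern was noticed in the data and then tested on them, by the 3 terms for the number in an additive limma fit. The number took 93.4% of the variation of Dntt within groups, against a median of 52.3% over all tested genes, and Dntt ranked 19 of 10210 by the test (limma, adjusted p = 4.90e-05). Such differences were widespread, since 31.3% of all tested genes were called. Of the 9 genes, 3 were called, Dntt, Xrcc6 (limma, adjusted p = 0.0143) and Dclre1c (0.0463). Xrcc6 was lost with quantile normalization (0.109). Dclre1c was lost with quantile normalization (0.0703), with median-ratio scaling (0.0789) and in 15 of 16 fits that left out 1 library (0.0511 to 0.117), the exception being the fit without replicate 2 of the wild-type cells with BCR-ABL1 (0.0351).

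Rag1 and Rag2 showed no such split. The number took 4.61% of the variation of Rag1 within groups and 10.5% of that of Rag2 (limma, adjusted p = 0.905 and 0.736). What the number stands for is not said in the labels. Their protocol describes libraries being loaded for sequencing in sets of 4, 1 of each genotype, without saying that the number marks the set, and whether it marks cultures, animals or sequencing cannot be told apart here.

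**Figure D5:**
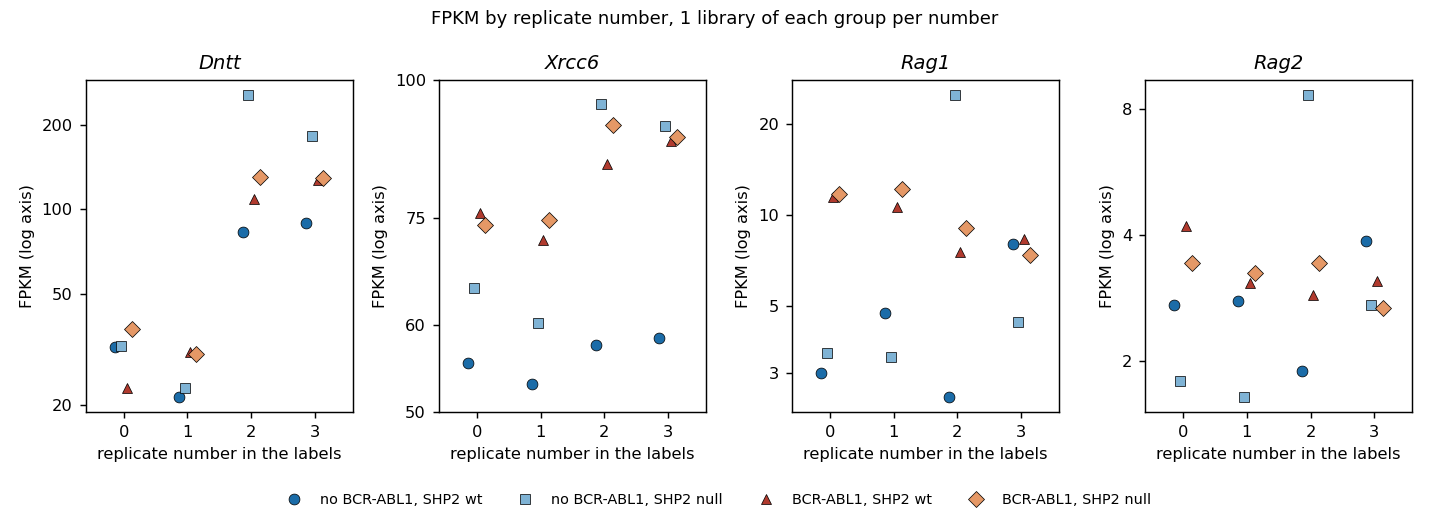
FPKM on log axes against the replicate number in the labels, with 1 library of each group per number. For Dntt the 8 libraries numbered 0 and 1 lie at 21.3 to 37.3 FPKM and the 8 numbered 2 and 3 at 82.8 to 256 FPKM, while Rag1 and Rag2 do not separate by number.

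The wider pathway was read from fixed lists of related genes. Of 20 regulators of Rag transcription, 19 were tested and 2 rose with BCR-ABL1 in wild-type cells, beside the 2.95% of all tested genes called higher there. Myb, a progenitor transcription factor that acts on the RAG locus, went from 90.2 ± 7.26 to 122 ± 7.18 FPKM (change 0.43 ± 0.09, limma, adjusted p = 0.0107, and 0.0557 with quantile normalization). Gfi1b, a zinc-finger repressor, went from 3.53 ± 0.842 to 6.70 ± 0.649 FPKM (change 0.78 ± 0.18, limma, adjusted p = 0.0190). The Gfi1b call was lost without replicate 2 of the cells without BCR-ABL1 (0.0755) or of those with it (0.0571). In the other comparisons none of the 19 was called, and the median change ranged from -0.06 to 0.09. With the replicate block, Ets1 (0.31, limma, adjusted p = 0.0403) was called higher after SHP2 loss without BCR-ABL1, where it called 4.03% of all tested genes higher. In null cells with BCR-ABL1 against those without, where the block called 5.27% of all tested genes, Gfi1b (0.52, adjusted p = 0.0490) was then called higher and Gfi1 (-0.63, adjusted p = 0.0350), its close relative, lower. Cebpa, a myeloid regulator, was below the filter, at most 0.568 FPKM.

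None of the other pathway lists held a called gene in any of the 5 comparisons without the block. Of 8 tested RAG cofactors and turnover genes, Hmgb1, which bends DNA for the recombinase, was the most abundant at 687 to 939 FPKM, followed by its relative Hmgb2 at 199.6 to 320.3 FPKM. Of 8 tested accessory end-joining factors, Tdp2 and Tdp1, which clean blocked DNA ends, were the most abundant at 19.1 to 26.1 and 10.9 to 17.01 FPKM. Of 15 tested genes of break sensing and end protection, Dynll1 read 52.2 to 72.1 and the histone variant gene H2afx 43.6 to 65.1 FPKM. Of 8 tested genes of alternative end joining, Parp1, a sensor of DNA breaks, read 98.5 to 181 and the flap nuclease gene Fen1 56.0 to 77.2 FPKM. Of the antigen receptor list 4 genes were matched in the table, the surrogate light chain genes, with Igll1 at 565 to 786 and Vpreb1 at 361 to 632 FPKM. The median change of these lists lay between -0.07 and 0.19 in the 4 pairwise comparisons.

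For each of the 9 genes the most similar profiles over the 16 libraries were found by Pearson correlation of log2(FPKM + 1), among all tested genes. Libraries share their group, number and composition, so these are descriptions. Rag1 was closest to Fnip2 (r = 0.91), Hip1 (0.90) and Kynu (0.89), and Rag2 to Fnip2 (0.88), Crebl2 (0.88) and Rag1 itself (0.87). Dntt was closest to Ttll11, Gbp2 (both 0.97) and Vaultrc5 (0.96). Xrcc6 was closest to Clgn (0.97), Klf10 (0.95) and Oas1a (0.95), and Lig4 to Stk4 (0.94), Cd97 (0.91) and Wdr47 (0.91). Xrcc5 was closest to Mre11a (0.92), a break-sensing nuclease gene of the lists above, then Cdc7 (0.91) and Pms1 (0.88). Xrcc4 was closest to Rbl1 (0.94), Eea1 and Rock2 (both 0.91), Dclre1c to Zbtb26, Zfand6 and Zfand5 (0.92 each), and Prkdc to Vps13a (0.90), Trim33 (0.89) and Casc5 (0.89). None of the top matches was another of the 9 genes, except Rag1 for Rag2.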

How the data were processed

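The authors deposited FPKM values per gene symbol, 1 column per library. Libraries were made from 150 ng of RNA with a TruSeq Stranded mRNA kit and sequenced from both ends over 100 cycles, per the labels' protocols. The submitters' processing notes name Bowtie, Cufflinks and mm10 (GRCm38). No source used here gives versions, annotation or strand handling. The table held 23758 entries, and entries sharing a symbol were added together (733 entries of 254 symbols). Per-library files and table agreed in 16 of 16 libraries. Summed FPKM ran from 348923 to 443702.

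FPKM holds no counts, so the depth is unknown. Among values under 0.05 FPKM the commonest ratio between 2 libraries held, within 1%, for 10.8% to 17.6% of genes over 15 pairs, too few to recover reads, and no count test was run.

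All tests ran on log2(FPKM + 1), a scale that understates changes of low genes. A single limma fit of 4 group means with a trended prior variance was used, with genes at 1 FPKM or more in at least 4 libraries (10210), two-sided tests, Benjamini-Hochberg adjustment over all of them and a threshold of 0.05. The code was tested on simulated data. Correlations used 100000 permutations within groups, of residuals where number means were removed. Fits used limma 3.58.1 under R 4.3.3. Other steps used Python 3.11.15 with scipy 1.17.1, pandas 2.3.3, numpy 2.4.6 and matplotlib 3.10.9.

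The 9 genes and all lists were chosen with earlier results of these data known. The text names the 9 genes, of each list the called genes or else up to 2 of highest mean FPKM, the 3 most similar profiles of each gene, and Ptpn11. List genes named because they were called only with the replicate block, and the single markers, were chosen after their values were seen. Of the lists, Paxx, Shld3 and 6 immunoglobulin constant genes were not matched in the table, Mri was matched through an older symbol, and Polm and Cebpa were below the filter.

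Same-number libraries deviated together in SHP2 loss with BCR-ABL1 (correlations of 0.22 to 0.78), SHP2 loss without it (0.19 to 0.51) and BCR-ABL1 in null cells (0.24 to 0.68), so a fit with the number as a block is given beside these results where it changes a call. In BCR-ABL1 in wild-type cells numbers 0, 1 and 2 stood at 0.64, 0.49 and 0.34, and number 3 at 0.05. The block is a single additive term over all 16 libraries, so its results are given for that comparison as well. Alternatives were the pseudocount, the filter, normalization, array weights, the groups in the fit, the block and leaving out each library.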

Additional observations from a re-analysis of the deposited data

Results flagged for a closer look

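Rag1 read 25.0 FPKM in replicate 2 of the SHP2-null cells without BCR-ABL1, against 3.41 to 4.45 FPKM in the other 3 libraries of that group, a gap of 0.952 of the group's range that exceeds Dixon's 95% limit for 4 samples. Rag2 read 8.66 FPKM in the same library, against 1.64 to 2.73 FPKM in the others (0.845 of the range). Each of the 9 genes was examined in each of the 4 groups, 36 sets in all, of which chance would mark about 1 in 20, and these 2 were marked. The library also held the highest Lyz2 (403 FPKM) and the lowest Ptpn11 (2.87 FPKM) of the 16. Its B-lineage markers summed to no less than 3053 FPKM, the minimum of its group. Whether these features are connected was not tested.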

How the results depend on the processing

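Of the values for single genes, 781 kept their direction and side of the threshold under an alternative, 21 lost a call, 5 gained one and 56 reversed. All reversals were of uncalled changes. With array weights the reversed changes were Xrcc4 in SHP2 loss with BCR-ABL1 (0.0091), Rag1, Rag2 and Dntt in SHP2 loss without it (-0.16, -0.38 and -0.46) Dntt with BCR-ABL1 in null cells (1.32), and Rag1, Rag2 and Dntt in the interaction (0.23, 0.37 and 0.69). Leaving out 1 library gave these ranges where the sign turned: for SHP2 loss with BCR-ABL1, Rag1 -0.020 to 0.20, Rag2 -0.085 to 0.057, Dntt -0.18 to 0.62, Dclre1c -0.027 to 0.043, Prkdc -0.053 to 0.021, Xrcc6 -0.013 to 0.086, Xrcc4 -0.050 to 0.034 and Lig4 -0.036 to 0.11; for SHP2 loss without it, Rag1 -0.13 to 0.75, Rag2 -0.31 to 0.31 and Dclre1c -0.081 to 0.020; for BCR-ABL1 in wild-type cells, Dntt -0.15 to 0.65, Dclre1c -0.0045 to 0.10 and Prkdc -0.046 to 0.0020; for BCR-ABL1 in null cells, Rag2 -0.15 to 0.47, Dntt -0.79 to 0.35, Xrcc6 -0.012 to 0.20 and Xrcc4 -0.0012 to 0.079; for the interaction, Rag1 -0.68 to 0.20, Rag2 -0.35 to 0.28, Dntt -1.02 to 0.11, Dclre1c -0.012 to 0.089 and Xrcc5 -0.025 to 0.082. Rag1, Rag2 and Dntt turned there only without null replicate 2 without BCR-ABL1. The correlation of Rag1 with Dntt ran from -0.20 to 0.37, and without the 2 farthest libraries it was -0.57, that of Rag2 with Dntt -0.052.

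Genes called moved from 32 to 11 (SHP2 loss with BCR-ABL1), 157 to 70 (SHP2 loss without), 477 to 186 (BCR-ABL1 in wild-type cells) and 129 to 33 (BCR-ABL1 in null cells) with a filter on a mean of 5 FPKM. Array weights gave 644, 837 and 1861 in the last 3, and 2 for the interaction. The replicate block gave 587 and 538 in SHP2 loss without BCR-ABL1 and BCR-ABL1 in null cells. A fit on the compared groups alone gave 34 and 30. Without a filter the interaction had 3. Leaving out 1 library gave 19 to 29, 72 to 164, 225 to 477 and 48 to 171 in the same order, and 0 to 1 for the interaction. The counts moved by over 1.5 times without wild-type replicates 2 or 3 with BCR-ABL1 in the first, without wild-type replicates 2 or 3 or null replicate 2 in the second, without wild-type replicates 2 or 3 without or 0, 2 or 3 with BCR-ABL1 in the third, and without null replicates 0 or 3 without or 0 or 2 with BCR-ABL1 in the fourth. By replicate number, 3196 genes were called, and 1905 to 3803 in these fits, with 1927 and 1905 without replicate 1 of the wild-type or null cells with BCR-ABL1.

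Of the 9 genes, those called went from 0 to 1 (Xrcc6) with the block in SHP2 loss without BCR-ABL1, and from 0 to 2 with array weights in BCR-ABL1 in null cells. In BCR-ABL1 in wild-type cells they went from 2 to 0 without a filter, and to 1 with the 5 FPKM filter (Lig4), quantile normalization (Xrcc6) and the compared groups alone (Xrcc6). Leaving out 1 library gave 0 to 1 in these 3 comparisons and 2 to 3 by replicate number. By replicate number they went from 3 to 1 (Dntt) with quantile normalization. The cause was not tested. For BCR-ABL1 in wild-type cells the same-number libraries correlated at 0.64, 0.49, 0.34 and 0.05 for numbers 0 to 3. There the replicate block called 1231 genes, 12.1% of those tested, among them Xrcc6 (limma, adjusted p = 0.00208) and Lig4 (0.0152), and the interval of Dntt became -0.26 to 0.73. Of the related genes, 10 of the 62 tested were then called instead of 2. Nhej1 (0.0315), Rnf168 (0.0429), Rbbp8 (0.0484), Spib (0.0288), Ets1 (0.0375) and Irf8 (0.0494) were added as higher, and Lig3 (0.0342) and Gfi1 (0.0311) as lower. With the block no other of the 9 genes changed its call.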
